A study of Homo sapiens with 2 samples.

Results

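Along the autosomes of the LOUCY cell line, 1135 of 50693 peaks of histone H3 lysine 27 acetylation (H3K27ac), or 2.24%, stood in 90 long runs of closely spaced peaks. A run was defined as at least 10 consecutive peaks in which no gap between neighbours was longer than 5000 bp. Its members were therefore chosen by the measured start and end positions of the called peaks, and the width, fold enrichment and significance of those peaks come from the same calls. All values here are accordingly given as a description, without a test. The whole list, with chromosome X, held 52203 peaks.

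LOUCY is an established human line of T-ALL, T-cell acute lymphoblastic leukaemia, and its labels give no treatment, genetic change or second line. The data were 1 H3K27ac ChIP-seq library and 1 library of input DNA from the same line, so there was no replicate and no spread between samples to set beside any value. The peak caller kept 54357332 of 62626946 ChIP tags and 71932640 of 74212738 input tags. Coordinates are those of the hg19 build.

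H3K27ac is laid down by the acetyltransferases p300 and CBP on nucleosomes beside active promoters and enhancers, and is removed by histone deacetylases. Genes that define a cell's identity are often surrounded by several acetylated elements close together, and such stretches have been described as enhancer clusters or super-enhancers. A broad peak caller can break such a stretch where the signal between elements falls back towards the input. A string of neighbouring peaks is thus one form in which such a stretch can appear in a peak list.

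The 90 runs spanned 7.70 Mb, or 0.267% of the autosomes, and peaks covered 5.50 Mb of that, or 71.5%. Over all autosomes, peaks covered 5.02% of the sequence. Peaks stood at 147 per Mb inside the runs and at 17.6 per Mb over the autosomes, a contrast that the rule itself fixes. A run held a median of 11 peaks, with an interquartile range of 11 to 13, and 62 of the 90 runs held 10 to 12. Only 14 runs had 15 or more peaks and 5 had 20 or more, while the longest had 34.

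The span of a run had a median of 76.5 kb, an interquartile range of 62.4 to 98.3 kb, a minimum of 34.5 kb and a maximum of 273.9 kb. The share of a run covered by its peaks ranged from 34.6% to 87.0%, with a median of 70.3%. Peaks covered at least 75% of 29 runs and less than 50% of 5. The covered share depends on the gaps, which the rule limits.

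**Figure D1:**
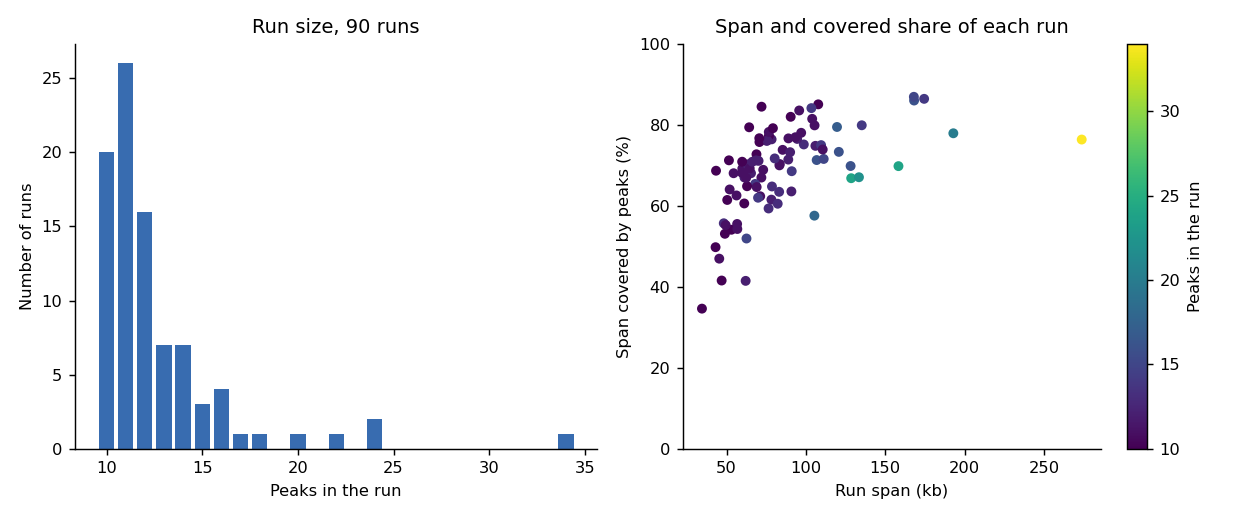
Left, number of runs (y axis) by the number of peaks in the run (x axis). Right, each of the 90 runs as a point, with its span in kb (x axis), the share of the span covered by peaks in percent (y axis) and the number of peaks in the run as colour; the run of 34 peaks stands alone at 273.9 kb, and the shortest run, at 34.5 kb, is also the one with the lowest covered share, 34.6%.

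The gaps inside the runs numbered 1045 and had a median of 1772 bp, with an interquartile range of 1155 to 2837 bp. In shorter strings of 2 to 9 peaks the median gap was 2020 bp. Of the gaps in runs, 580 (55.5%) were below 2000 bp, 151 (14.4%) below 1000 bp, and 95 (9.09%) above 4000 bp. Few gaps were thus near the limit of the rule, but 1 such gap is enough to break a run, and with gaps up to 4000 bp only 48 runs with 615 peaks were left. The shortest gap in the list, 817 bp, was 1 bp over 4 times the fragment length of 204 bp set in the caller, and the narrowest peak was as wide as that fragment length. The median gap was 1593.5 bp beside a peak of fold 6 or more (n = 338), against 1921.5 bp between peaks that were both below a fold of 3 (n = 410).

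The sequence beyond the ends of the runs held further peaks, at distances not compared here with those of shorter strings. The distance from a run to the next peak outside it, over both ends of the 90 runs, had a median of 10.2 kb and a range from 5020 bp to 698 kb. It was at most 10 kb at 88 of 180 ends and at most 6 kb at 29. Only 6 runs had more than 20 kb without a peak on both sides. On either side of the count threshold, the 20 runs of exactly 10 peaks had a median span of 62.0 kb, a median covered share of 71.1% and a median highest fold of 8.67. The 40 strings of 9 peaks, just outside the rule, had 51.4 kb, 68.5% and 9.99. Of the runs of exactly 10 peaks, those nearest to the gap limit were at 10q11.21, 5p15.2 and 12q13.13, with longest gaps of 4759, 4708 and 4704 bp. Of the strings of 9, those nearest to a further peak were at 6p22.3 (15274541 to 15331848), 12q13.13 (51709545 to 51794261) and 4q31.23 (148700499 to 148743212), which missed a 10th peak by gaps of 5046, 5123 and 5408 bp.

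Fold enrichment, the authors' ratio of ChIP signal to the local control level with 1 value per peak, was low for most members. The median was 2.65, with an interquartile range of 2.33 to 4.23, against 2.92 in strings of 2 to 9 peaks and 3.25 in peaks with no neighbour within 5000 bp. Low folds were not particular to the runs. Peaks in strings of 9, just outside the rule, had a median fold of 2.65, and those in runs of exactly 10 had 2.71. A fold below 3 was recorded for 712 members (62.7%), while the background share over all autosomal peaks was 48.4%. In strings of 5 to 9 peaks this share was 53.8% to 65.0%, depending on the place in the string. At the other end, 196 members (17.3%) had a fold of 6 or more, where the background was 23.1%, and 57 (5.02%) had a fold of 10 or more, where it was 5.18%. The share of very strong peaks was thus close to that of the whole list, and the share of weak peaks was above it. The median −log10 q was 2.91 in members and 4.77 over all autosomal peaks.

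These weak peaks made up most of the count on which the rule rests. Only 26158 of the 50693 autosomal peaks had a fold of at least 3, and a thinner list by itself gives shorter strings. Built only from peaks with a fold of at least 3, no run of 10 was left, and the longest strings had 7 peaks. One of these lay at 206879830 to 206991433 of chromosome 1, inside the 1q32.1 run, and another at 128531115 to 128628425 of chromosome 11, inside the 11q24.3 run. The other 3 lay outside every run, at 119226708 to 119252334 of chromosome 11, 106441325 to 106479632 of chromosome 14 and 21987866 to 22010196 of chromosome 15. With peaks under a −log10 q of 5 removed, no run was left either, and the longest strings had 6 peaks. Lower cutoffs on −log10 q were chosen after seeing the data, and 9 runs with 94 peaks were left above 2 and 1 run with 10 peaks, in 1p13.3, above 3.

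Although weak peaks made up most of the count, strong ones made up most of the covered sequence. Peaks with a fold of 6 or more held 55.4% of the covered bases of the runs, and those below 3 held 19.9%. Members had a median width of 2021 bp, with an interquartile range of 793 to 5618 bp, against 1666 bp over all autosomal peaks. Peaks narrower than 1 kb were about as frequent among members (31.5%) as in the whole list (32.2%). Of the 500 autosomal peaks of 20 kb or more, 51 (10.2%) were members. Peaks of this width made up 4.49% of the members and 0.986% of all autosomal peaks, and 43 of the 90 runs held at least 1 of them. Strings of 2 to 9 peaks held 394 of the 500, or 1.60% of the peaks in those strings.

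Width and fold rose together in the members. Across the 1135 peaks, which share 1 library and 1 set of calls, Spearman's rho was 0.774, against 0.741 across all autosomal peaks. At a given width, members of intermediate size had lower median folds than other peaks. Those of 2 to 5 kb had a median fold of 2.90 (n = 265), against 4.96 in other autosomal peaks of that width, and those of 5 to 10 kb had 5.16 (n = 135), against 6.66. At 20 kb or more the medians were 8.88 (n = 51) and 8.87, and below 1 kb they were 2.32 (n = 358) and 2.37. The gap between members and other peaks was thus found at middle widths and was small at both extremes.

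**Figure D2:**
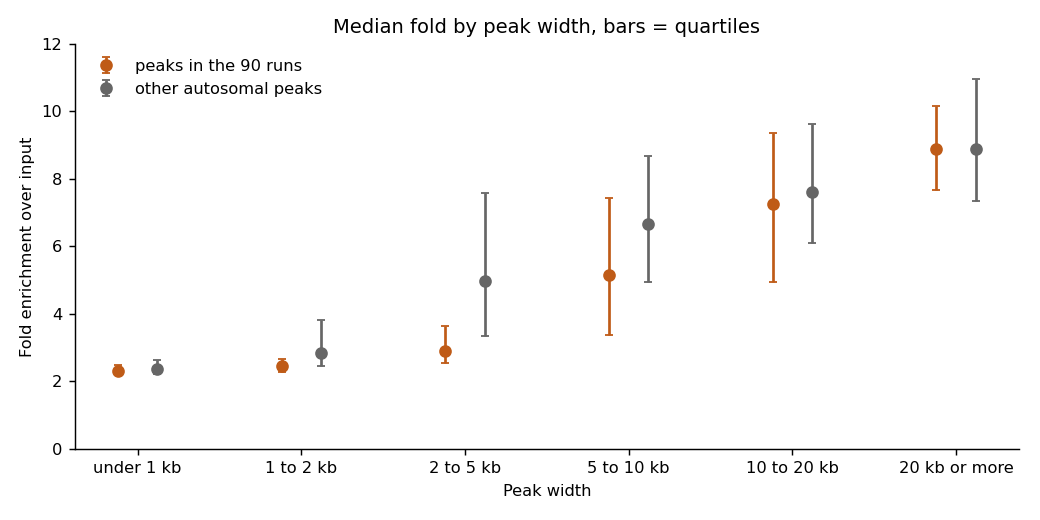
Median fold enrichment over input (y axis) of peaks in 6 width classes (x axis), for the 1135 peaks in the runs and for all other autosomal peaks, with bars from the first to the third quartile. The members lie lowest against the other peaks at 2 to 5 kb, 2.90 against 4.96, and level with them at 20 kb or more.

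Each run combined strong and weak peaks. The highest fold in a run ranged from 4.58 to 16.6, with a median of 9.88, and the lowest had a median of 2.16. The ratio of the highest to the lowest fold within a run was 2.22 to 7.51, with a median of 4.59, and reached 4 or more in 62 runs. At least 1 peak with a fold of 6 or more was present in 88 runs, exactly 1 in 23 runs, and at least 1 with a fold of 10 or more in 43. The exceptions without a peak of 6 or more were the runs at 13q22.1 and 1q42.3, with highest folds of 4.58 and 4.75. Peaks below a fold of 3 numbered 4 to 22 per run and were 50% or more of the peaks in 79 runs. The widest peak of a run held 14.5% to 67.0% of its covered sequence, with a median of 36.1%, and it was also the strongest peak in 50 of 90 runs.

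The strongest peak, chosen as the maximum of its run, stood above its neighbours without a slope on either side. It had a median fold of 9.88 and a median width of 13730 bp. The peaks next to it had a median fold of 2.50 and a median width of 1531 bp, and 117 of these 163 (71.8%) were below a fold of 3. At 2, 3, 4 and 5 peaks away the median folds were 2.64, 2.63, 2.58 and 2.60, and at 6 or more away 2.56. A fold of 6 or more was found in 11 of the 163 direct neighbours (6.75%) and in 45 of the 368 peaks at least 6 places away (12.2%). The difference between these shares was not tested.

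**Figure D3:**
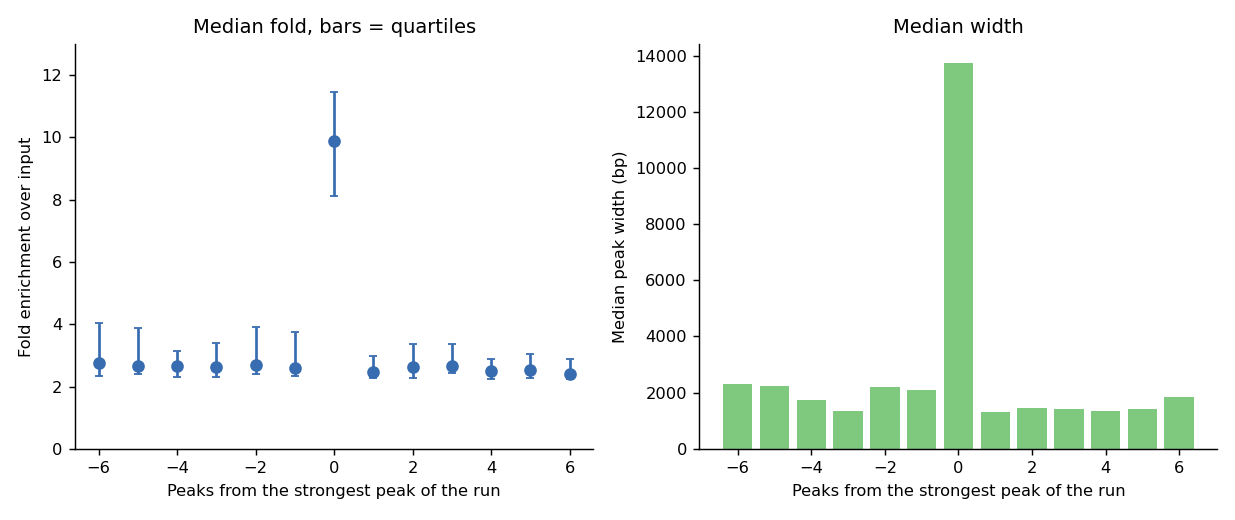
Median fold enrichment (left, y axis, bars from the first to the third quartile) and median peak width in bp (right, y axis) by the number of peaks before (negative) or after (positive) the strongest peak of the run (x axis). The strongest peaks stand at a median of 9.88 and 13730 bp, and the peaks at every other place have median folds below 3.

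Median folds at the ends of the runs were close to those further in. From the outermost peak inwards the median fold was 2.67, 2.58, 2.70 and 2.63 at the first 4 places and 2.66 further in, and the median width was 1982, 1560, 2069, 2153.5 and 2252 bp. The strongest peak was the first or last of its run in 17 of 90 runs (18.9%, 95% Wilson interval 12.1% to 28.2%, counting error only), while end places made up 15.9% of the members. With each run divided into 3 equal parts by peak order, the strongest peak fell in the first part in 20 runs, the middle part in 37 and the last part in 33. Neighbouring peaks of a run differed in fold by a median ratio of 1.41 (1045 pairs), and peaks 8 places apart by 1.41 as well (415 pairs). At 2, 3 and 5 places apart the median ratios were 1.33, 1.37 and 1.38. By these medians, neighbours were no closer in fold than peaks further apart, and pairs 8 places apart come more from the larger runs. In strings of 2 to 9 the median ratio between neighbours was 1.66, and in autosomal neighbours more than 5000 bp apart it was 1.53. Pairs of neighbours that were both at a fold of 6 or more made up 1.82% of the pairs in runs and 3.76% of those in shorter strings, and pairs that were both below 3 made up 39.2% and 25.3%. The longest unbroken stretch of peaks below 3 within a run was 2 to 12 peaks, with a median of 4.

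Larger runs were longer and weaker at the median but not at the top. The 46 runs of 10 or 11 peaks had a median span of 66.7 kb, a median member fold of 2.75 and a median highest fold of 8.82. In the 14 runs of 15 or more peaks these were 128 kb, 2.58 and 10.7, and 66.4% of their peaks were below a fold of 3. A larger run has more peaks from which the maximum is taken.

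Genes of a band are named only as background on that band. A band holds many genes, so a run in it need not lie near the named gene, no run was assigned to a gene this way, and the T-cell label of the line was not checked by it. Genes are named this way only for bands with a run. The bands of other T-cell and progenitor genes, such as GATA3, BCL11B, TCF7, LEF1, CD3E and IL7R, held none.

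The longest run lay at 177234523 to 177508385 of chromosome 3, in 3q26.32, the band of TBL1XR1, a subunit of nuclear corepressor complexes. It ranked first by number of peaks (34), by span (273.9 kb) and by the sum of fold times width, and 76.4% of it was covered. Its strongest peak was the 17th, at 177356406 to 177371827 (15422 bp), with a fold of 9.74. A pair of wider peaks followed. The peak at 177387588 to 177421600 covered 34013 bp with a fold of 8.67, and the next, at 177422808 to 177453913, covered 31106 bp with 6.92. In all, 5 of the 34 peaks had a fold of 6 or more and 22 were below 3, and the widest peaks stood in the second part of the run.

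A pair of runs held 24 peaks. The first ran from 36374351 to 36532708 of chromosome 11 (158.4 kb, 69.8% covered), from 11p13 into 11p12, the band of RAG1 and RAG2, the genes of the V(D)J recombinase. Its peaks at 36393837 to 36403078, 36423988 to 36435725 and 36467178 to 36483174 had folds of 11.3, 12.5 and 15.1, and its last peak had 8.86. The other ran from 8564104 to 8692659 of chromosome 2 (128.6 kb, 66.8% covered), in 2p25.1, the band of ID2, an inhibitor of basic helix-loop-helix factors. Its strong peaks had folds of 10.3 (8592501 to 8601225), 8.77 (8651217 to 8668960) and 13.6 (8673022 to 8689722), and 18 of its 24 peaks were below 3. In both runs 3 or more peaks of fold 6 or more were thus present, and no pair of them stood directly side by side.

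The next runs by number of peaks were of different makeup. The run at 22q12.1, the band of the transcriptional coregulator gene MN1, had 22 peaks (27999025 to 28132473, 133.4 kb). Its 3 strong peaks were nearly equal, with folds of 8.87, 9.32 and 8.97, and the other 19 were all below 3. The run at 1p13.3, the band of the lymphocyte signalling gene VAV3, had 20 peaks over 192.9 kb (108319832 to 108512776, 77.9% covered). Only its last peak, at 108489439 to 108512776, reached a fold of 6, with 7.93, and 12 peaks were below 3. A part of this run, at 108324268 to 108429455, was the one left above a −log10 q of 3. The run at 9q21.2 (80456021 to 80561369) had 18 peaks and a single strong one, 25262 bp wide with a fold of 8.88.

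Smaller runs included some of the most fully covered stretches. At 9q22.2, the band of the kinase gene SYK and the semaphorin gene SEMA4D, 15 peaks covered 87.0% of 168.1 kb (92011776 to 92179833), the highest share of all runs. Its widest peak, at 92104662 to 92161018, covered 56357 bp at a fold of 10.3, and peaks of 11.5 and 10.6 stood before it. At 6p23, the band of CD83, a surface gene of dendritic cells and lymphocytes, 14 peaks covered 86.4% of 174.5 kb (14304784 to 14479316), and the peak at 14419946 to 14466407 covered 46462 bp at a fold of 9.01. At 1q32.1, the band of the cytokine gene IL10, 16 peaks covered 86.0% of 168.2 kb (206823231 to 206991433), with a median fold of 4.24 and a highest fold of 8.90. These 3 runs, with those at 3q26.32 and 18q23, had the largest sums of fold times width.

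At 8q23.1 (108265157 to 108372939) 10 peaks covered 85.1% of the run, and its widest peak was 35110 bp wide with a fold of 8.83. At 2q14.3 (129224104 to 129296140) 84.5% was covered and the order was one-sided. The first peak had a fold of 11.8 and the second 9.11, and no later peak passed 3.06. At 18q23, the band of the myelin basic protein gene MBP, 16 peaks (74750304 to 74878490) included one of 49086 bp with a fold of 11.2. At 17q22 16 peaks (54778824 to 54899583) included one of 46748 bp with a fold of 10.2. At the border of 1p36.12, the band of ID3, and 1p36.11, the band of the T-cell transcription factor gene RUNX3, 17 peaks (23846964 to 23966580) held strong peaks of 12.7 and 11.8. Over the 90 runs, Spearman's rho between the number of peaks and the covered share was 0.077.

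The least covered run, at 13q22.1 (74631292 to 74665778), the band of the Krüppel-like repressor gene KLF12, was also the shortest and had the lowest highest fold. Its 10 peaks covered 34.6% of 34.5 kb, 9 of them were below 3, and the strongest, 3143 bp wide, had 4.58. The other runs with a covered share under 50% were those at 16q12.1 (49472884 to 49534912, 41.5%), 12q13.13 (52400497 to 52447392, 41.6%), 22q12.2 (30642162 to 30687557, 47.0%) and 10q11.21 (45454648 to 45497708, 49.8%). Sparse cover did not mean weak peaks throughout. The strongest peak at 22q12.2, the band of the cytokine gene LIF, had a fold of 10.9 and a width of 4180 bp, and the first peak at 16q12.1 had 10.4.

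**Figure D4:**
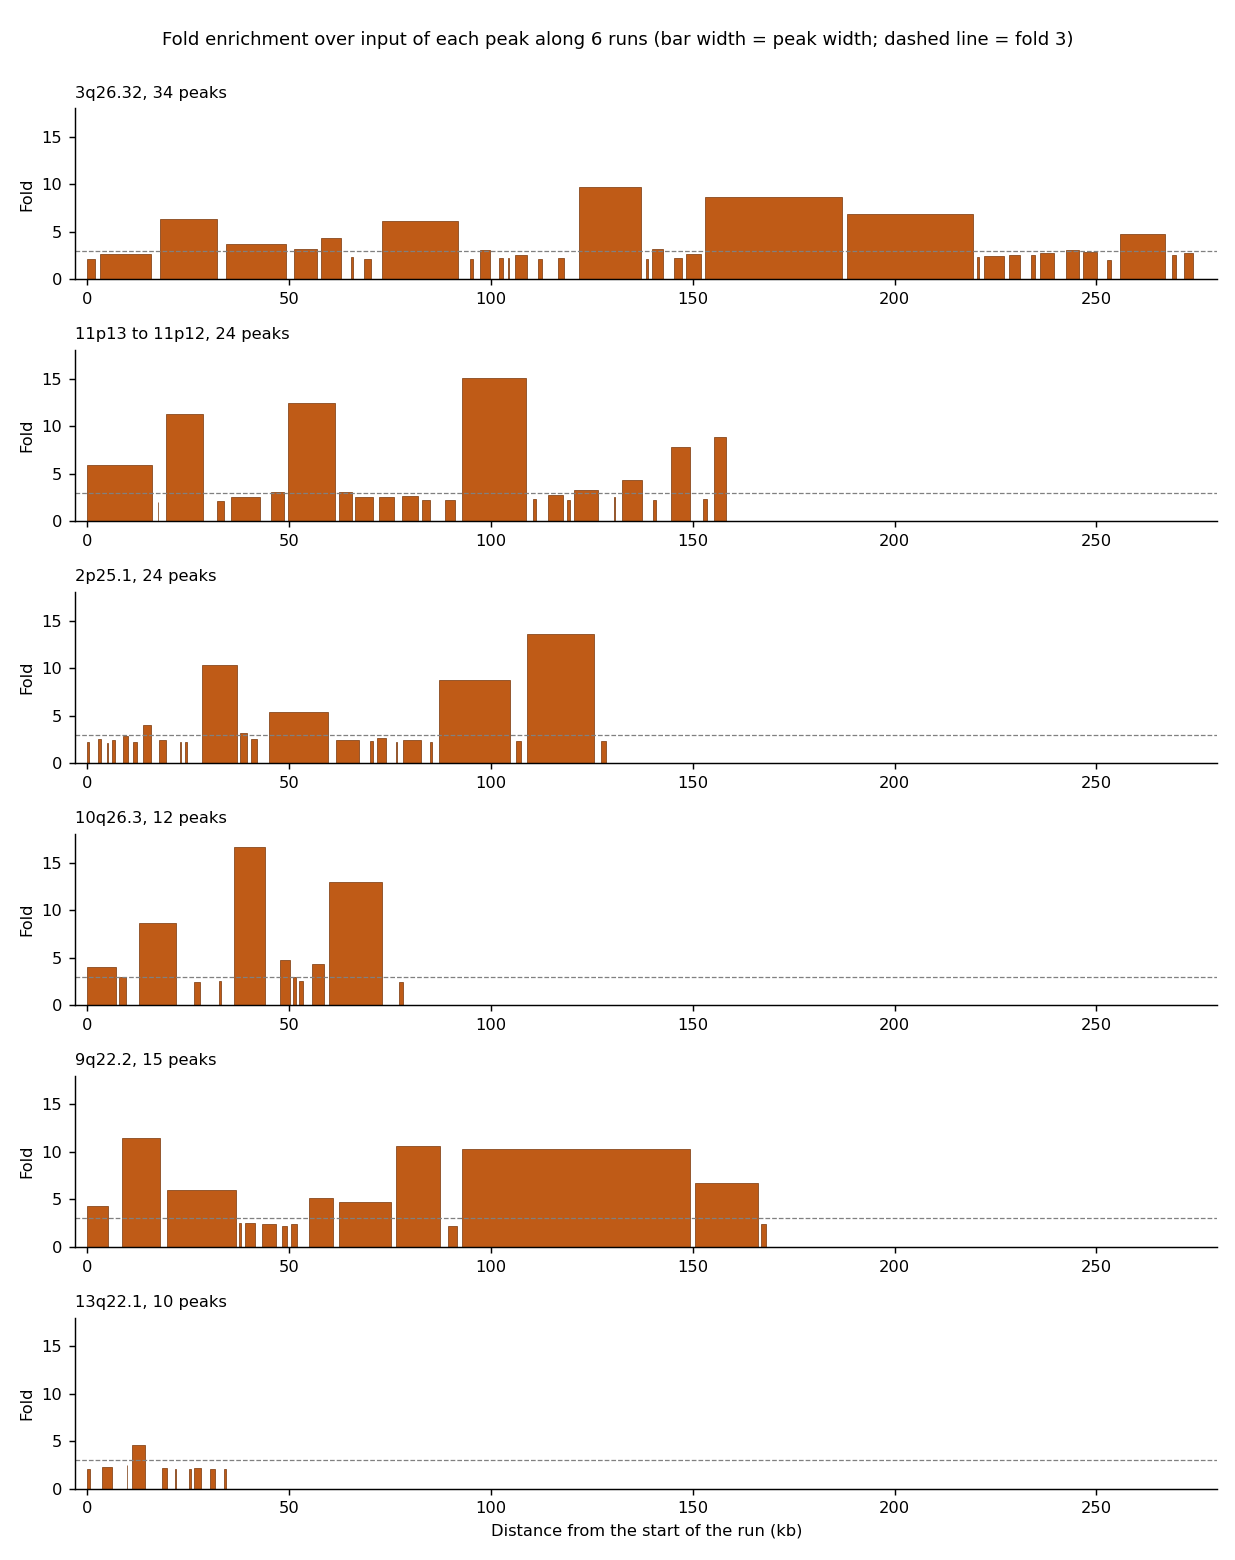
Fold enrichment over input (y axis) of each peak along 6 runs, by distance from the start of the run in kb (x axis), with each bar as wide as its peak; the dashed line marks a fold of 3. In the first 5 runs strong peaks stand among weaker ones, many of them of fold 2 to 3, while at 13q22.1 no peak passes 4.58.

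The highest fold of any member was 16.6, at 134231006 to 134238508 (7503 bp) in the run of 12 peaks at 10q26.3 (134194568 to 134272828). It ranked 77th in the whole list. Members, 2.24% of autosomal peaks, made up 22 of the first 1000 peaks by fold, which is near that share, and 95 of the first 1000 by width. The next highest were 16.1 at 10q22.1 (74074810 to 74098597), the band of the stress-response gene DDIT4, and 15.9 at 11p15.4 (2900663 to 2905303), the band of the cell cycle inhibitor gene CDKN1C. The 11p13 to 11p12 run followed with 15.1. At 20q11.21, the band of the DNA methyltransferase gene DNMT3B, a peak of 31461 bp (31245838 to 31277298) had 14.6. The highest median fold, 4.79, belonged to the run at 15q15.1 (40327944 to 40411261), where 5 of 11 peaks had a fold of 6 or more and none passed 8.38.

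Among the 24 runs described in detail, both end peaks were below a fold of 3 in 10, 1 of the ends in 9 and neither in 5. The 34 peaks at 3q26.32 began at a fold of 2.17 and ended at 2.73, and the 24 at 2p25.1 began at 2.23 and ended at 2.28. In both runs the outermost peaks were thus weak, although at 2p25.1 the peak next to the last was the strongest of the run, at 13.6. At 10q22.1 the end peaks had 2.31 and 2.35, at 20q11.21 2.15 and 2.27, at 8q23.1 2.31 and 2.16, and at 18q23 2.60 and 2.16. The 22q12.1 run opened with a peak of 8.87 and closed at 2.25, and 16q12.1 opened at 10.4 and closed at 2.23. The opposite order held at 1p13.3, from 2.18 to 7.93. The runs at 11p13 to 11p12, 11p15.4, 12q13.13, 10q11.21 and 1q32.1 had neither end below 3, with folds from 5.90 to 8.86, 3.49 to 9.74, 4.20 to 6.99, 3.79 to 8.50 and 6.77 to 4.15. At 11p15.4 the last peak was also the widest, at 18394 bp, and at 11p13 to 11p12 the first was, at 16023 bp.

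When peaks within 12500 bp were joined and the 24633 autosomal regions so formed were put in order of summed fold times width, runs were frequent at the top. A run lay in 5 of the first 10 regions, 23 of the first 50, 34 of the first 100 and 85 of the first 1000. The median rank over the runs was 159.5, and the lowest-ranked was 13q22.1 at 6388. A region with many near peaks sums more of them, so this order follows in part from the rule.

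Runs lay on 21 of the 22 autosomes, and their number did not follow chromosome length. Chromosome 1 had the most, 13, or 5.22 per 100 Mb. Chromosome 22 had 6, or 11.7 per 100 Mb, which was the highest density, followed by chromosomes 17 (7.39), 16 (6.64) and 20 (6.35). Chromosome 5 had 1 run (0.553) and chromosome 4 had 2 (1.05). As a share of the peaks of the chromosome, members were 6.35% on 22, 2.99% on 17, 4.41% on 16 and 3.24% on 20. This share was 1.05% on chromosome 4 and 0.418% on chromosome 5, against 2.24% over all autosomes. Chromosome 17, with 2.82% of autosomal length, held 4.69% of autosomal peaks and 6.67% of the runs. Chromosome 7, with 2564 peaks, had none. Its longest string had 9 peaks, and it held 6 strings of 8 or 9. Chromosome X, which is outside the rule, had 1510 peaks and a longest string of 8.

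**Figure D5:**
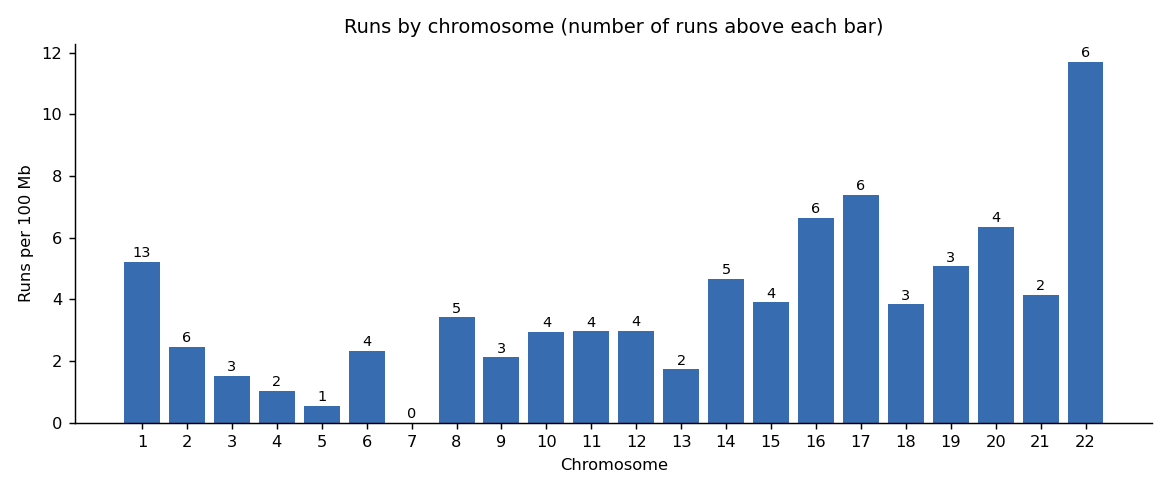
Runs per 100 Mb (y axis) on each autosome (x axis), with the number of runs above each bar. Chromosome 22 stands highest at 11.7, and chromosome 7 has no run.

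Giemsa-negative bands, which are rich in genes, held 60.6% of the run span and 42.4% of autosomal length. Peaks of the whole list were placed much the same, with 58.4% of their covered bases in such bands. The darkest bands held 6.85% of the run span, 7.19% of all peak-covered bases and 16% of length. Of 811 autosomal bands, 89 (10.97%) held at least part of a run, and 6 bands held a pair: 1p36.11, 1q41, 9q21.2, 14q24.1, 17q25.3 and 20q13.2. The closest pair, at 14q24.1 (68705131 to 68781747 and 68817807 to 68901342), was 36.1 kb apart with 4 peaks between. This is the band of ZFP36L1, which encodes an RNA-decay factor. Other pairs within 1 Mb were 416 kb apart at 17q25.3 and 593 kb apart at 19q13.13 and 19q13.2.

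By coordinate, the other runs of chromosome 1 were at 1p36.22 (12199877 to 12259788), 1p36.11 (27921088 to 27999473), 1p13.2 (115603536 to 115657974) and 1q23.1 (156769809 to 156844988). Further along the long arm they were at 1q32.2 (208031296 to 208138095), 1q41 (219915095 to 219987036 and 221856353 to 221967579), 1q42.12 (226174141 to 226236693), 1q42.13 (230289212 to 230360412) and 1q42.3 (234998816 to 235069535). The 1q32.2 run, in the band of the progenitor surface gene CD34, had 16 peaks and opened with its strongest and widest one, 18967 bp with a fold of 12.05. In the 1q42.12 run 14 of 15 peaks were below 3, around a single one of 12.3.

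On chromosome 2 the other runs were at 2p23.2 (28556936 to 28647798), 2p21 (46553434 to 46596792), 2q31.3 (182256852 to 182333569) and 2q37.3 (240133776 to 240232462). Chromosome 3 had further runs at 3p24.3 (18110066 to 18185791) and 3q28 (189025558 to 189094403). The first of these, in the band of the thymocyte chromatin organiser gene SATB1, had 12 peaks, of which only the widest, at 29721 bp, reached a fold of 6, with 6.75. Chromosome 4 had runs at 4p16.1 (10655575 to 10738723) and 4p12 to 4p11 (48186556 to 48292558), and chromosome 5 at 5p15.2 (10552716 to 10613871). Chromosome 6 had further runs at 6p22.3 (21821992 to 21891837), 6q21 (109369221 to 109418168) and 6q23.3 (135565196 to 135654191). The 6q23.3 run, in the band of the progenitor transcription factor gene MYB, closed with its strongest peak, at 135634448 to 135654191, with a fold of 10.5. Its widest peak was 26393 bp with a fold of 8.36.

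On chromosome 8 the other runs were at 8p23.3 to 8p23.2 (2178201 to 2246818), 8q13.1 (66892939 to 66945995), 8q24.12 (121730013 to 121778253) and 8q24.22 (134052687 to 134147173). The last, in the band of SLA, an adaptor that dampens T-cell receptor signalling, had 1 peak of 48486 bp with a fold of 13.5, and 10 of its other 11 peaks were below 3. Chromosome 9 had a further run at 9q21.13 to 9q21.2 (79174566 to 79284148), whose widest and strongest peak, its last, was 52138 bp with a fold of 10.1. Chromosome 10 had a further run at 10q24.1 (97005414 to 97075581, highest fold 13.98). Chromosome 11 had further runs at 11q13.3 (69208442 to 69264707) and 11q24.3 (128523801 to 128634401). The 11q24.3 run, in the band of the ETS factor genes ETS1 and FLI1, had 3 peaks of 6 or more and a median fold of 3.35. Chromosome 12 had further runs at 12q23.1 (96790080 to 96854326), 12q23.3 (104939560 to 105007572) and 12q24.31 (123543104 to 123638880), and chromosome 13 at 13q12.3 (28975091 to 29026584).

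Chromosome 14 had further runs at 14q24.2 (73020752 to 73086152), 14q32.13 (95908447 to 96005473) and 14q32.33 (106745660 to 106831004). The last lay in the band of the immunoglobulin heavy chain genes, with a median fold of 4.38 and a highest of 7.39. Chromosome 15 had further runs at 15q21.3 (58716494 to 58820458), 15q24.1 (74215067 to 74291547) and 15q26.3 (101645702 to 101751171). On chromosome 16 the others were at 16p12.3 (17415420 to 17478455), 16p11.2 (31393560 to 31454840), 16q21 (57608117 to 57743328), 16q22.1 (68278541 to 68335194) and 16q23.3 (81799494 to 81889559). The 16q21 run was the longest of that chromosome, 135.2 kb with 4 peaks of 6 or more. On chromosome 17 the others were at 17q11.2 (29855972 to 29938201), 17q24.1 (63126056 to 63195022), 17q25.1 (71526420 to 71597044) and 17q25.3 (75319100 to 75409514 and 75825802 to 75890389). The first 17q25.3 run held a peak of 41591 bp with a fold of 10.01.

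Chromosome 18 had further runs at 18p11.32 (901027 to 963934) and 18q21.2 (52469597 to 52529421), and chromosome 19 had runs at 19p13.2 (8222360 to 8282133), 19q13.13 (38476200 to 38528148) and 19q13.2 (39121343 to 39200559). Chromosome 20 had further runs at 20q13.2 (50005336 to 50054764 and 52195037 to 52283936) and 20q13.31 (55993591 to 56073929). Chromosome 21 had runs at 21q22.11 (34387225 to 34478296) and 21q22.3 (46492794 to 46559060). The 21q22.11 run, in the band of the neural transcription factor gene OLIG2, had 14 peaks, 3 of them with a fold of 6 or more. Its strongest peak was 22505 bp wide with a fold of 12.2. On chromosome 22 the others were at 22q11.23 (24655141 to 24711917), 22q12.3 (36750726 to 36823813), 22q13.1 (40419248 to 40481608) and 22q13.33 (50214490 to 50264906), the last with a highest fold of 13.4 in 10 peaks.

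Gene positions in hg19 were at hand for a set of 398 autosomal genes, 308 of them protein-coding, and 2 runs touched 3 of these. In the run of 11 peaks at 1p36.22, the microRNA gene MIR7846 (12227000 to 12227095, plus strand) lay inside the 6th peak, which was 5246 bp wide with a fold of 4.88. MIR4632 (12251770 to 12251830, plus strand) lay in the same run but in none of its peaks. The strongest peak of that run stood between them, at 12231584 to 12242824, with a fold of 11.8. The mature microRNAs of both genes are shown because these are the only whole genes of the set inside a run, in RNA letters from RefSeq (GRCh38.p14), with the seed, bases 2 to 8, in capitals, and the 3 seeds differ.
hsa-miR-7846-3p: cAGCGGAGccuggagagaagg
hsa-miR-4632-5p: gAGGGCAGcguggguguggcgga
hsa-miR-4632-3p: uGCCGCCCucucgcugcucuag
The other gene was LRRC27 (134145697 to 134195012 of chromosome 10, plus strand), a leucine-rich repeat gene whose last 445 bp overlapped the first peak of the 10q26.3 run. No run had 50% or more of its span inside a gene of the set.

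The control level implied by a peak's fold and p-value gave a rough view of the level the caller used under the runs. It is not a count of input tags, so a low value need not show the input at that place. The median level was 5.94 in members and 6.42 in all autosomal peaks. The run medians ranged from 4.29 to 9.60, with 62 of 90 below 6.42. The highest belonged to 1p13.3 (9.60), followed by 14q32.33 (9.13) and 2q31.3 (9.08), and the lowest to 19q13.13 (4.29). In 7 runs the median level was over 8. Single peaks could lie far above their run's median. A 714 bp peak of fold 2.11 in the 3q26.32 run had a level of 46.6. In the 11p13 to 11p12 run a 292 bp peak of fold 2.52 had 29.7. The level is solved from the fold itself, so both are not independent, and the part of the input in the runs was not tested.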

How the data were processed

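The LOUCY H3K27ac library and its input library were single-end, per the labels' protocols. Reads were placed on hg19, and the tools named in the submitters' processing notes are Bowtie2, of a version not stated there, and MACS2. The authors called broad peaks with MACS2 2.1.0.20140616 at a q cutoff of 0.05, keeping 1 tag per position and using fragments of 204 bp, per the file headers. For each peak the authors deposited a fold enrichment, the ratio of ChIP to control signal. The −log10 p-value of each peak was deposited too, as was its −log10 q-value. These values served for description, ranking and filtering, and fold and p-value also for the implied control level. The deposited pileup was below 0 in every row and was not used. The deposited peak width was used as given.

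The gap between neighbours was the number of bases between them. The members, gene and band lists were chosen with earlier results of these data known. Runs described in detail were the 10 with most peaks, the 5 longest, the 5 most and the 5 least covered, the 5 with the highest fold, the 5 with the largest sum of fold times width, and those touching a gene of the set; the other runs, and genes named for their bands, were chosen after values were seen. Bands came from circlize 0.4.16, and gene positions from the samples in GenomicFeatures 1.54.1 and pyranges 0.1.4 (419 genes, the build of the second read from a haplotype name). Names of genes came from RefSeq (GRCh38.p14). The control level is the one at which fold and p-value fit a Poisson tail, and it is approximate. The building of runs was tested on simulated peak positions with planted strings. No full hg19 annotation or sequence was used here. Counts of runs by list of bands are not reported here. Calculations used Python 3.11.15, numpy 2.4.6, pandas 2.3.3, scipy 1.17.1, matplotlib 3.10.9 and R 4.3.3. With 1 library of each kind, no test was made.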

Additional observations from a re-analysis of the deposited data

How the results depend on the processing

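The counts depended on every limit of the rule. The 90 runs with 1135 peaks became 48 with 615 at gaps up to 4000 bp, 309 with 4252 at gaps up to 10000 bp, 212 with 2151 at 8 peaks or more and 14 with 268 at 15 peaks or more. From peaks with a −log10 q over 5, or with a fold over 3, there were 0 runs with 0 peaks, so no width, fold or share could be given. With −log10 q cutoffs of 2 and 3, both chosen after seeing the data, there were 9 runs with 94 peaks and 1 run with 10. The covered share of 71.5% became 75.6% and 59.7% with the 2 gap limits, and 71.6% and 73.7% with the 2 sizes. At 15 peaks or more the median fold was 2.58 and the share below a fold of 3 was 66.4%. With 50% of the span required inside a gene, 0 runs touched one. The median width stayed between 1842.5 and 2172 bp and the share of runs with the strongest peak at an end between 14.2% and 20.3% over the gap and size settings, and adding chromosome X left 90 runs and 1135 peaks. No paired analysis was possible because ChIP and input each had 1 library. Without replicates the error of any value is unknown, and where the weakest peaks begin and end depends on the depth of both libraries.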
